A study of Mus musculus with 2 samples.

Results

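The genes described here mostly encode enzymes that write or erase methyl groups on histone lysines, or deacetylases that remove acetyl groups from them. They were taken as every probe set that the platform annotation assigns to exactly 1 gene whose symbol is Kdm, Kmt, Setd, Hdac or Sirt with a number and an optional letter, or is Ezh1, Ezh2, Eed, Suz12, Nsd1, Ehmt1, Ehmt2 or Dot1l. The probe sets of Kdm5d were left out. The rule gave 145 probe sets of 59 genes, among 45101 probe sets on the array and 18193 genes that were named. The rule uses gene symbols only.

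Methylation of histone lysines can mark active or repressed chromatin, depending on which residue carries it. The KMT2 and SETD1 enzymes methylate H3K4 at promoters and enhancers, Polycomb repressive complex 2 places the repressive mark on H3K27, and the KDM demethylases remove these marks. Deacetylases work in corepressor complexes that silence transcription. In myeloid cells the H3K27 demethylase gene Kdm6b is known to be induced by LPS, and Hdac11 is known as a repressor of interleukin-10 in antigen-presenting cells.

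Both samples were dendritic cells grown from C57BL/6J mouse bone marrow with GM-CSF at 20 ng/ml for 7 days and then given lipopolysaccharide (LPS), a bacterial cell wall component, at 10 ng/ml. One came from wild-type mice and the other from miR155-/- mice, which lack the microRNA miR-155. The growth protocol in the labels speaks of macrophages where all other labels say dendritic cells. Each genotype had 1 Affymetrix array, with no replicate and no cells without LPS, so no p-value was computed and a difference describes these 2 arrays. The labels do not say how many mice were used for a sample.

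The microRNA missing from the knockout is shown first, since its loss is the labelled difference between the samples. Its mature arms are credited to RefSeq (GRCm38.p6) at chr16:84714143-84714165 and chr16:84714182-84714202 on the plus strand, with the seed, bases 2 to 8, in capitals.
mmu-miR-155-5p: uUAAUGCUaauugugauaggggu
mmu-miR-155-3p: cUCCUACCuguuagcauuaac
Its host transcript, Mir155hg, had a deposited intensity of 922 in wild type and 192 in the knockout and was 7.13-fold lower after normalization. The labels do not say whether its probe set overlaps the deletion. Jarid2, which encodes a Polycomb cofactor, is not one of these enzymes but has been reported as a target of miR-155. It was 1.42-fold higher, with 3 of 3 probe sets higher (0.50 to 0.82 on the log2 scale).

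All 13 dendritic cell markers on a list were above the floor, defined below, on at least 1 array, among them Cd74 (normalized signals of 11584 in wild type and 11156 in knockout), Itgax (4290 and 5331) and Flt3, which was above it only in the knockout. Of these markers 11 were lower and 2 higher in the knockout (Itgax and Flt3), with a median difference of -0.18 on the log2 scale, and they summed to 59181 in wild type and 52152 in the knockout. The lower ones included Cd40, a costimulatory receptor (2933 and 1436, -1.03), Irf8, a transcription factor of dendritic cells (4551 and 2874, -0.66), Ccr7, the receptor for lymph node homing (6287 and 4304, -0.55), and Cd86, a costimulatory ligand (3040 and 2131, -0.51). Of 8 macrophage markers 6 were measured, 5 of them higher, with a median of 0.21 and summed signals of 24647 and 27791. Mrc1, the mannose receptor gene (138 and 288, 1.06), and Mertk, a receptor for apoptotic cells (318 and 558, 0.81), differed most, Adgre1 had 7458 and 8568, and Fcgr1 was lower (-0.24). Of 7 measured granulocyte markers 6 were lower, with a median of -0.36 and summed signals of 6793 and 7787. The sum was higher in the knockout because of S100a8, the brightest and the only higher one (4517 and 6093, 0.43). All sums here use signals from before the floor was applied and include values below it, such as 37.5 for Mzb1 in the knockout. Summed over the measured markers, B and plasma cell genes had 1621 in wild type and 366 in knockout, with Cd79a below the floor on both arrays, and mast cell and basophil genes 539 and 219. The part of these cells in the differences below was not tested. In bulk samples, fewer cells of a type and less RNA per cell cannot be told apart.

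Signals are normalized intensities unless called deposited. The median deposited intensity was 58.4 on the wild-type and 78.3 on the knockout array, so the log2 intensities were quantile normalized, and anything dimmer than the overall median of 67.6 was raised to that value, called the floor. A gene is represented by its probe set with the highest mean signal and counts as measured if at least 1 array lies above the floor. A difference is the log2 signal of the knockout minus that of the wild type. The only error available is the disagreement between probe sets of 1 gene, an SD of 0.29 over 11653 probe sets of 4410 genes, which holds no variation between mice or cultures.

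Of the 59 genes, 56 were measured. Both arrays exceeded the floor for 54. Hdac6, Hdac8 and Kdm4d lay at or below it on both. Hdac11 exceeded it only in wild type and Kdm4b only in the knockout, so each of these could differ only in that direction. Of the 145 probe sets, 108 were measured.

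**Figure D1:**
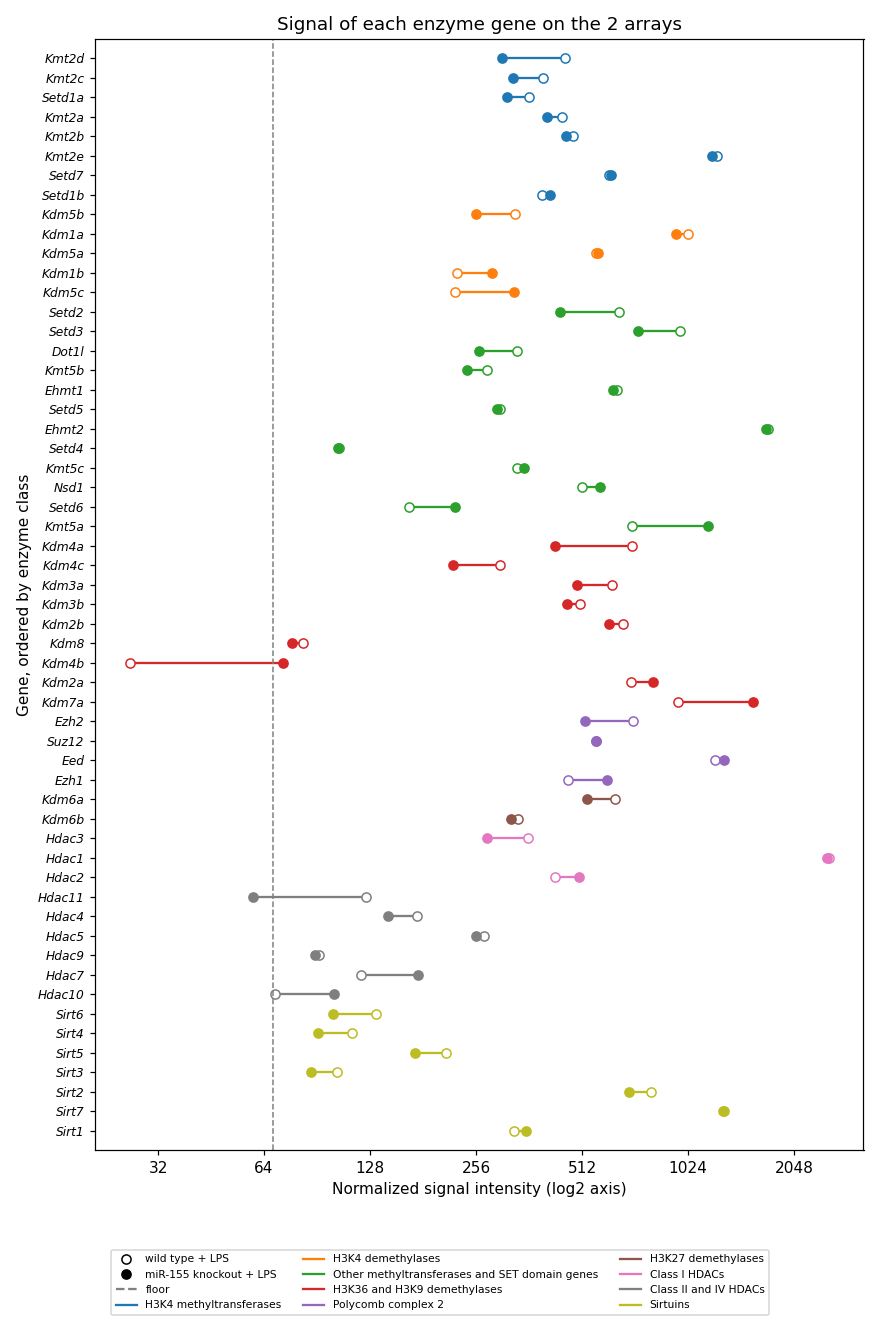
Normalized signal intensity (horizontal, log2 axis) of the 56 measured enzyme genes, with an open point for the wild-type and a filled point for the knockout array. Lines join both arrays of a gene, colours mark the enzyme class and the dashed line is the floor of 67.6. Right of the floor, the longest lines belong to Kdm4a, Kmt5a and Kdm7a.

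With the floor applied, no enzyme gene differed 2-fold between the arrays, against 1.19% of the 11878 measured genes. The floor limits the differences of Hdac11 and Kdm4b, and with no floor these 2 differed 2-fold. At a size of 1.5-fold, 2 enzyme genes were higher in knockout cells (Kmt5a and Kdm7a) and 3 were lower (Kdm4a, Kmt2d and Hdac11). These 5 are 8.93% of the 56, and over all measured genes 8.67% passed that size, 4.57% higher and 4.1% lower. The share among the enzymes thus lay near that of all genes. When genes that exceeded the floor on both arrays were split by signal into ranges of equal size, 12.9% passed it in the low, 6.35% in the middle and 3.71% in the high range. The enzymes that passed in these ranges were 0 of 11, 2 of 28 (Kdm4a and Kmt2d) and 2 of 15 (Kdm7a and Kmt5a). Just inside the size lay Kmt2d, at -0.59, and just outside it Setd2 (-0.56), Kdm5c (0.56), Hdac10 (0.56) and Hdac7 (0.54).

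More enzyme genes were lower than higher, 37 against 19, with a median difference of -0.07. Over all measured genes 48.5% were lower and 51.5% higher, and the median was 0.01. Beyond 1 probe set SD, 13 enzyme genes were lower (23.2%) and 8 higher (14.3%), against 15.7% and 17% of all genes. The middle 50% of the enzyme differences ran from -0.28 to 0.08. The direction count rests on the scaling. With no scaling 54 of 57 were higher, at a median of 0.49, because the knockout array was brighter by 0.54 at the median gene. Relative to the median gene of each scaling, 33 to 38 enzyme genes lay below it, and the enzyme median lay 0.05 to 0.08 below it. Some of these scalings differ only by a constant and the floor, as described at the end, and had to nearly agree here.

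**Figure D2:**
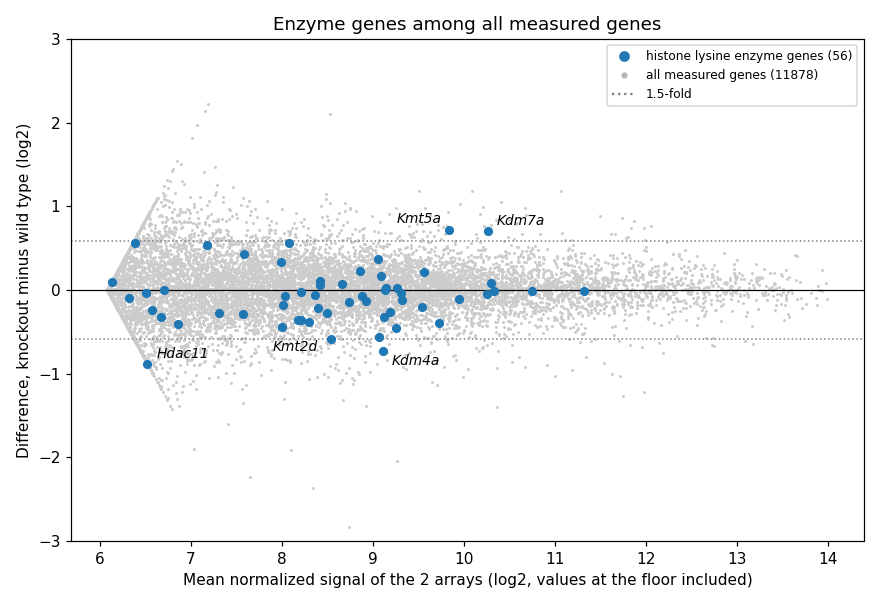
Difference between knockout and wild type (vertical, log2) against the mean normalized signal of both arrays (horizontal, log2) for 11878 measured genes in grey and the 56 enzyme genes in blue. Dotted lines mark 1.5-fold, and the 5 enzyme genes outside them are named.

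The promoters of the 4 genes that passed 1.5-fold and lay above the floor on both arrays are shown so that the higher and lower pairs can be compared. They are RefSeq windows (GRCm38.p6) from 250 bases before to 50 after an annotated start, and a start was in the table for 47 of the 59 genes. Capitals mark matches on either strand to a loose NF-kB motif, GGG and CC with any 5 bases between them, or to an AP-1 motif, TGANTCA. The searches were run separately, and matches of a motif may overlap. Kdm7a lies on the minus strand at chr6:39206724-39207023, Kmt5a on the plus strand at chr5:124439680-124439979 (the most upstream of 3 starts), Kdm4a on the minus strand at chr4:118179994-118180293 and Kmt2d on the minus strand at chr15:98871156-98871455.
Kdm7a: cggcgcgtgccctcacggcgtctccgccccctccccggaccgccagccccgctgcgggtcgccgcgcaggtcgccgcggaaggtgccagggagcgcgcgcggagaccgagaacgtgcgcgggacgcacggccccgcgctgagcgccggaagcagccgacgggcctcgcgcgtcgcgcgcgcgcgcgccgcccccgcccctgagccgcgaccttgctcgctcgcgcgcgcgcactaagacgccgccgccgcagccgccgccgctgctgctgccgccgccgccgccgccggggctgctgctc
Kmt5a: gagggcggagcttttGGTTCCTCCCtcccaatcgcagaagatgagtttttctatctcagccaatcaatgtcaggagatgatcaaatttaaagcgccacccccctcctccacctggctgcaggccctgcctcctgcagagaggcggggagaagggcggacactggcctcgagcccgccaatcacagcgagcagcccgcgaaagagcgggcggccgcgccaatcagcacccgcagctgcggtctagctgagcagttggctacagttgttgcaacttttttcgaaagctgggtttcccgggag
Kdm4a: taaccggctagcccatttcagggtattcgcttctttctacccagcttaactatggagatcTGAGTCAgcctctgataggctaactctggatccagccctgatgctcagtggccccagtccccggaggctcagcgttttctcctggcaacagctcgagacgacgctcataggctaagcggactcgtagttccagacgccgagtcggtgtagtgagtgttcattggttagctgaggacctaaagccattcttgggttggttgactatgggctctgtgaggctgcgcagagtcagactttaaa
Kmt2d: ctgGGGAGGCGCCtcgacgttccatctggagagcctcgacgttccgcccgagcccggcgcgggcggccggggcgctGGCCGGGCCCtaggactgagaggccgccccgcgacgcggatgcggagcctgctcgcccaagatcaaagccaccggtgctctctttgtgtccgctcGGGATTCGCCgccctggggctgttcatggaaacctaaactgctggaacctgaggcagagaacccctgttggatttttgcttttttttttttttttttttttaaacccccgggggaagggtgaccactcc
In these windows, Kdm7a had 65 CpG dinucleotides, a GC content of 82.7% and no match to either motif, and Kmt5a had 18, 59.7% and 1 NF-kB match. The other starts of Kmt5a, which are not printed, had 51 CpG dinucleotides, 80.3% and 1 NF-kB match at the second and 9, 61.7% and 4 NF-kB matches at the third. In the lower pair, Kdm4a had 13 CpG dinucleotides and 1 AP-1 match, and Kmt2d had 27 and 3 NF-kB matches. Across all 64 windows of the enzyme genes the median was 23.5 CpG dinucleotides and a GC content of 62.3%, against 7 and 52.7% over 32851 windows in the table. The loose NF-kB motif, which is rich in G and C, was in 75% of the enzyme windows and 50.8% of all windows, and the AP-1 motif in 9.38% and 7.81%. A stricter NF-kB motif with no free base, contained in the loose one, the E2F sequence TTTCGCGC and the CRE sequence TGACGTCA were in 0 of the 64 windows, and in 0.155%, 0.323% and 1.79% of all. A match is a run of letters and does not show binding.

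Among the H3K4 methyltransferase genes, 6 of 8 were lower, with a median of -0.10. Kmt2d, whose product methylates H3K4 at enhancers, had deposited intensities of 372 in wild type and 370 in the knockout, which became 456 and 303 after normalization. Its single measured probe set was thus level in deposited signal, and its difference relative to the other genes was -0.59. Its relative Kmt2c (397 and 326, a difference of -0.28) had 3 of 4 probe sets higher, so that its sign rests on the probe set chosen. Kmt2e, which encodes a SET domain protein of the same family, had signals of 1238 and 1199, with 2 of 4 probe sets higher. Kmt2a (-0.14, with 2 of 2 probe sets lower), Kmt2b (-0.07), Setd1a (-0.21), Setd1b (0.07) and Setd7 (0.02) stayed within the probe set SD.

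The H3K4 demethylase genes did not share a direction, with 3 of 5 higher and a median of 0.02. Kdm5c, an X-linked gene, shows how much a single probe set can carry. At the probe set with the highest mean it had 222 in wild type and 328 in the knockout, a difference of 0.56, but 6 of its 8 measured probe sets were lower, down to -0.66. Kdm1b, the second LSD-type demethylase gene, was 1.26-fold higher (226 and 285), and Kdm1a, the first, had a difference of -0.11 (1024 and 946), with 2 of 2 probe sets lower. Kdm5b had -0.37 at the brighter and 0.22 at the dimmer probe set, and Kdm5a 0.02.

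Kmt5a and Kdm7a were the enzyme genes with the most positive differences. Kmt5a encodes the enzyme that adds a single methyl group to H4K20 and acts in the cell cycle. Its deposited intensity was 573 in wild type and 1440 in the knockout, and its normalized signal 712 and 1167, 1.64-fold higher. The second measured probe set was higher as well, by 0.50. A list of 22 proliferation genes, of which 19 were measured, had 15 higher and 4 lower, with a median of 0.31. Among them Rrm2 (0.82), Mcm4 (0.81) and Mcm3 (0.64) were higher and Cdc20 (-0.83), Mcm2 (-0.75) and Birc5 (-0.73) lower. The sign of Mcm2 rests on the probe set chosen, since its other measured probe set had 0.44. The part of cell division in the Kmt5a difference was not tested.

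The remaining methyltransferases and SET domain genes, taken with Kmt5a, had 4 of 12 higher and 8 lower, with a median of -0.02. Setd2, which places the trimethyl mark on H3K36, was next to the 1.5-fold size, at 653 in wild type and 442 in the knockout on its only measured probe set, while its deposited intensities were 528 and 543. Setd3 (-0.39), whose product methylates actin, and Dot1l (-0.36), the H3K79 methyltransferase gene, each had 2 of 2 probe sets lower. Setd6, which encodes a methyltransferase of the NF-kB subunit RelA, was 1.35-fold higher, with probe sets from -0.46 to 0.84. The H3K9 methyltransferase partners Ehmt1 (641 and 625) and Ehmt2 (1722 and 1700) and the SET domain gene Setd5 (299 and 294) were nearly level. Nsd1 (0.16), Kmt5b (-0.18) and Kmt5c (0.06) also lay within the probe set SD. Setd4, the only one of these genes on chromosome 16, which also carries Mir155hg, had signals of 104 and 104 with deposited intensities of 87.9 and 123.

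Among the H3K9 and H3K36 demethylases, Kdm7a was higher and Kdm4a and Kdm4c were lower. Kdm7a, which encodes a demethylase of H3K9 and H3K27, had deposited intensities of 780 in wild type and 1931 in the knockout and normalized signals of 960 and 1563. It was 1.63-fold higher, with 3 of 3 probe sets higher, the others by 0.50 and 0.01. Kdm4a, which removes trimethyl marks from H3K9 and H3K36, was 1 of 3 measured enzyme genes with a lower deposited value in the knockout at the probe set used (the others were Hdac11 and, barely, Kmt2d), at 571 in wild type and 525 in the knockout. After normalization it had 709 and 428, 1.66-fold lower on its only measured probe set. Kdm4c, its close relative, was lower too (298 and 220, -0.44). Kdm4b was dim, above the floor only in the knockout (26.7 and 72.4), and at least 1.07-fold higher. The Kdm3 genes, for H3K9 demethylases, had -0.33 for Kdm3a and -0.13 for Kdm3b. Of the Kdm2 genes, which encode H3K36 demethylases, Kdm2a had 0.21 with 2 of 4 probe sets higher and Kdm2b -0.13 with 2 of 2 lower. Kdm8 had -0.10, close to the floor. In all, 6 of 9 measured genes of the class were lower, with a median of -0.13.

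The 4 genes of the Polycomb repressive complex 2 core had a median of 0.04, and its alternative catalytic subunits differed in sign. Ezh2, the catalytic subunit of dividing cells, had 712 in wild type and 520 in the knockout, a difference of -0.45 on its only probe set, although its deposited intensities were 573 and 641. Ezh1, the alternative subunit, had 468 and 602, a difference of 0.36, but -0.58 at its dimmer probe set. The scaffold subunit gene Suz12 was level at its brightest probe set (560 and 560), with other probe sets from -0.39 to 0.66. Eed, which encodes the subunit that reads the mark, had 1220 and 1294, a difference of 0.08. The proliferation genes above had a positive median, while Ezh2 was lower. Whether these are connected was not tested.

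Apart from Kdm7a, described above, the H3K27 demethylase genes are those of the KDM6 family, and both were within the probe set SD at the probe set used. Kdm6b, the LPS-inducible one, had 337 in wild type and 322 in the knockout (-0.07), with the other measured probe sets at 0.48 and 0.15. A further probe set that the annotation assigns to Kdm6b together with another gene had -0.27 and was not counted. Kdm6a, which is X-linked, had 636 and 530 (-0.26), with 1 of 3 probe sets higher.

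The measured class I deacetylase genes, Hdac1, Hdac2 and Hdac3, encode catalytic subunits of the Sin3, NuRD and NCoR corepressors. Hdac1 had 2565 in wild type and 2531 in the knockout, a difference of -0.02, and its partner Hdac2 428 and 500 (0.22, with 2 of 2 probe sets higher). Hdac3, the deacetylase of the NCoR complex, was lower by more than the probe set SD, at 359 and 275 (-0.39), on a single probe set. These differences left the 3 measured class I genes with a median of -0.02.

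Of the class II and IV deacetylases, Hdac11 had the most negative difference. Its deposited intensity was 104.5 in wild type and 68.8 in the knockout. After normalization it had 125 and 59.5, which is below the floor in the knockout, so it was at least 1.84-fold lower, on 1 measured probe set. Hdac10 (68.8 and 101.4) and Hdac7 (120 and 175, with 2 of 2 probe sets higher) were 1.47-fold and 1.45-fold higher, both at low signal. Hdac4, a reported miR-155 target in B cells, had -0.28 at the brightest probe set (174 and 144), while its other probe sets had 0.56 and 0.45. Hdac5 (-0.08) and Hdac9 (-0.04) were within the probe set SD, and the class had a median of -0.06.

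Sirtuins are NAD-dependent deacylases, and 6 of the 7 were lower in knockout cells, with a median of -0.24. Sirt6, a nuclear sirtuin that restrains NF-kB target genes, had 133 in wild type and 100.4 in the knockout (-0.40). The mitochondrial members were Sirt3 (103 and 87.2, -0.24), Sirt4 (114 and 91.0, -0.32) and Sirt5 (210 and 172, -0.29, with 2 of 2 probe sets lower). Sirt2, mainly cytoplasmic, had 801 and 694 (-0.21), Sirt7, a nucleolar member, 1297 and 1283 (-0.02), and Sirt1 was the only one higher (329 and 354, 0.11). Only Sirt4 and Sirt6 exceeded the probe set SD, and 15.7% of all genes were lower by as much. Sirt3, Sirt4 and Sirt6 were dim. With the floor raised to the 75th percentile of signal, these and Sirt5 were no longer measured. The median of Sirt1, Sirt2 and Sirt7 was then -0.02, which is the Sirt7 value. With no scaling all 7 were higher, with scaling on hybridisation controls 4 were lower, and with centring on the median 5 were. Relative to the median gene, 5 or 6 of the 7 lay below it under each of these scalings and under loess. No scaling, hybridisation controls and centring differ only by a constant and the floor, so their counts are not separate checks.

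**Figure D3:**
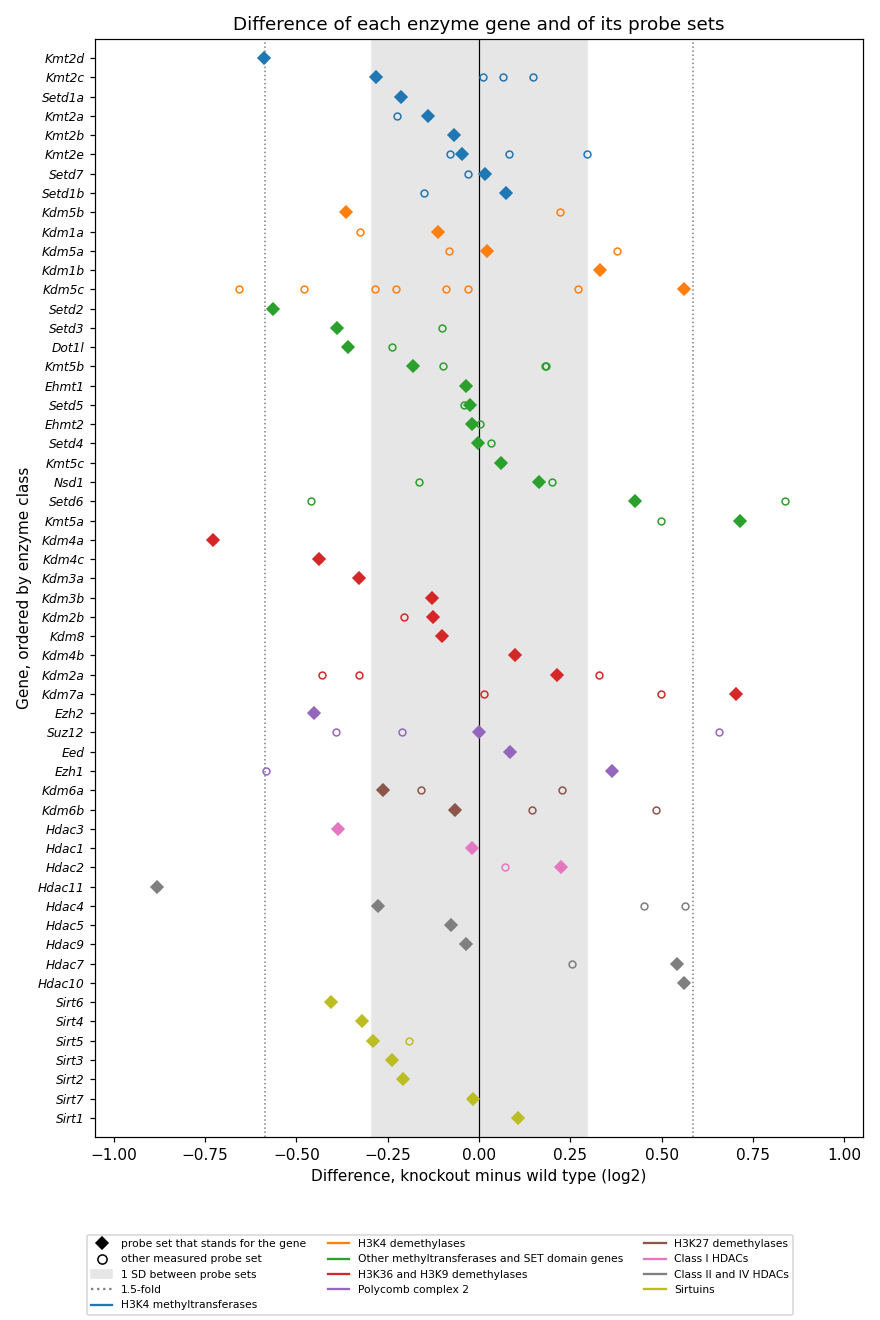
Difference between knockout and wild type (horizontal, log2) for the 56 measured enzyme genes. Diamonds mark the probe set that stands for the gene, circles its other measured probe sets, the grey band 1 SD between probe sets (0.29) and the dotted lines 1.5-fold. Circles of Kdm5c, Suz12, Ezh1, Setd6 and Hdac4 lie on the other side of 0 from the diamond or far from it, while all 3 points of Kdm7a and both of Kmt5a lie at or above 0.

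Probe sets of the same gene often disagreed. Of 27 enzyme genes with several probe sets above the floor on both arrays, 15 had probe sets of both signs. The share over all genes was not computed. The SD within these enzyme genes was 0.30, near the 0.29 over all such genes. Over all 108 measured probe sets the median difference was -0.04, and 4 were at least 1.5-fold higher and 4 lower. Of all measured probe sets of 1 gene, 9.44% passed that size, 4.77% higher and 4.67% lower. Besides the genes already given, these were probe sets of Setd6 and Suz12 (higher) and of Kdm5c (lower).

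The partners of these enzymes were level on balance. Among 23 measured Polycomb cofactors and PRC1 genes the median was -0.01, with 11 higher and 12 lower; Pcgf6, a subunit of a variant PRC1, was 1.82-fold higher (107 and 195, 2 of 2 probe sets) and Phf1, a PRC2 accessory gene, 1.55-fold lower. The 12 COMPASS cofactors, which assist the H3K4 methyltransferases, had 6 higher and 6 lower, a median of -0.02 and none at 1.5-fold. Of 26 deacetylase corepressor genes 15 were higher, with a median of 0.01. Rcor1, the CoREST subunit that links Kdm1a to Hdac1 and Hdac2, was 1.59-fold higher (534 and 848), with 3 of 3 probe sets, and Mta2, a NuRD subunit gene, had a difference of -0.59 (495 and 330). The 12 lysine acetyltransferases, which oppose the deacetylases, had a median of 0.04, with 7 higher and none at 1.5-fold. Other lysine methyltransferases and demethylases had 9 of 17 higher and a median of 0.01, with Prdm9, an H3K4 methyltransferase of meiosis, at least 1.67-fold lower, with only its wild-type value over the floor.

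**Figure D4:**
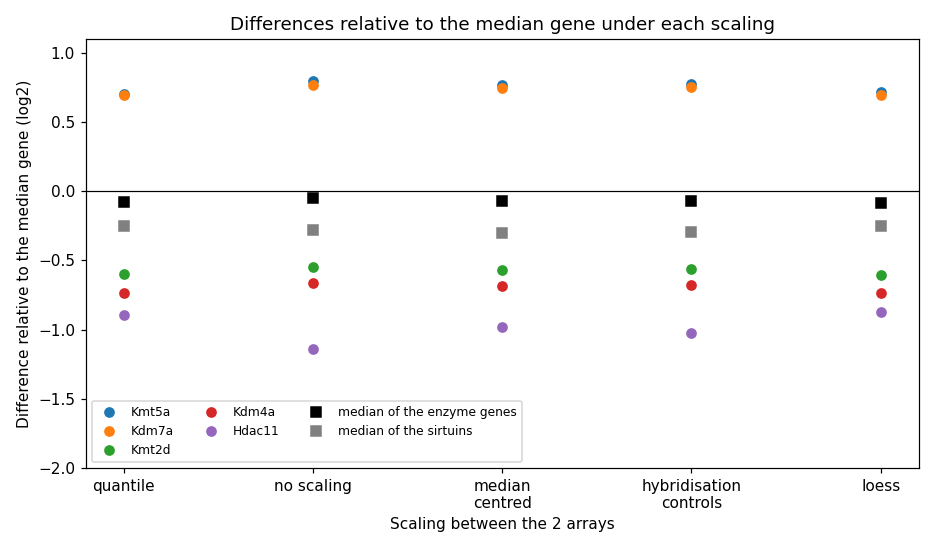
Difference relative to the median measured gene (vertical, log2) under 5 ways of scaling the arrays (horizontal), for the 5 enzyme genes that passed 1.5-fold (circles), the median of the enzyme genes and the median of the sirtuins (squares). Kmt5a and Kdm7a lie between 0.69 and 0.79 and Kdm4a between -0.74 and -0.66 over the scalings. Hdac11 lies lower still, and Kmt2d lies between -0.61 and -0.55. No scaling, median centring and hybridisation controls differ only by a constant and the floor, so their points had to nearly agree.

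Relative to the median gene, 4 of the 5 kept the 1.5-fold size under all 5 scalings. Kmt2d missed it with no scaling, centring on the median and scaling on hybridisation controls. Kdm5c passed it with no scaling only. No scaling, centring on the median and scaling on hybridisation controls differ only by a constant and the floor. Their agreement relative to the median gene was therefore largely fixed in advance. In deposited values, which have no floor, Kmt5a (1.33) and Kdm7a (1.31) were higher by more than the median measured gene (0.57). Kdm4a (-0.12) and Hdac11 (-0.60) were lower, and Kmt2d (-0.01) was level.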

How the data were processed

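Total RNA from 1 wild-type and 1 miR155-/- dendritic cell sample was hybridised to Affymetrix arrays as biotin-labelled cRNA made from 6 ug, per the labels' protocols. The authors deposited 1 intensity per array, on a linear scale, for each of 45101 probe sets. The labels do not say how it was computed or scaled. From these values the log2 intensities of 45037 probe sets (without 64 controls) were quantile normalized, since the medians differed by 34.1%, more than the limit of 10% set for this step, and values under the median were set to it. Normalization makes both arrays share 1 distribution, so a difference in total signal is lost. Gene names came from the platform annotation (932 probe sets named several genes, 9160 none). Membership, lists and sizes were chosen with earlier results of these data known. The plan was to give full values for genes at 1.5-fold, beyond 2 probe set SDs, the 6 with the highest mean signal and those on the chromosome of Mir155hg, and the difference for the rest. The text departs from it. Signals are also given for other genes, such as Setd2, Ezh2 and the sirtuins, and deposited values are left out for some planned genes, such as Hdac1. Listed partner genes were named at 1.5-fold. Scaling, floor, probe set choice and symbols were varied. The number of arrays limits the precision. Scripts ran in Python 3.11.15 with pandas 2.3.3 and were tested on simulated data.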

Additional observations from a re-analysis of the deposited data

How the results depend on the processing

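No paired analysis was possible because each genotype has 1 array. No replicate could be left out for the same reason, and values with 1 array a group carry no error between cultures. The scaling moved the most. With no scaling, the count of enzyme genes at least 2-fold different was 4 in place of 0 and the count at least 1.5-fold different 19 in place of 5. The medians were then 0.49 for all enzyme genes, 0.63 for H3K4 demethylases, 0.35 for H3K36 and H3K9 demethylases, 0.42 for H3K27 demethylases, 0.49 for H3K4 methyltransferases, 0.65 for Polycomb repressive complex 2, 0.56 for the other methyltransferases, 0.38 for class I and 0.46 for class II and IV deacetylases and 0.26 for sirtuins, and Mir155hg had -2.26. These shifts follow the brightness of the knockout array, 0.54 at the median gene. At 1.5-fold, 18 enzyme genes were then higher and 1 lower, against 43.5% and 0.498% of all genes. With centring on the median 5 were higher and 1 lower (7.63% and 2.91% of all). With scaling on hybridisation controls the counts were 1 at 2-fold and 8 at 1.5-fold, of which 7 were higher and 1 lower (12.2% and 1.96% of all); these 2 scalings and no scaling differ only by a constant and the floor. With no floor, 2 enzyme genes were 2-fold different, Kdm4b and Hdac11, both dim on 1 array. At 1.5-fold, 3 were then higher and 3 lower, against 7.39% and 6.95% of all genes. The share of all genes at 2-fold is given only for the main setting, so the 2-fold counts under other settings lack that comparison. With the floor at the 75th percentile Mir155hg had -2.36, since the higher floor limits its knockout value, and Hdac11 was not measured. The sirtuin median was -0.02 in place of -0.24, but only Sirt1, Sirt2 and Sirt7 were then measured. With probe sets averaged, Kdm7a had 0.40 and no longer passed 1.5-fold, Kmt5a had 0.61, and medians turned sign for class II and IV deacetylases (-0.06 to 0.10), H3K27 demethylases (-0.17 to 0.06), H3K4 demethylases (0.02 to -0.07) and Polycomb repressive complex 2 (0.04 to -0.05). The last was -0.06, and that of class I deacetylases 0.10, when _x_at and _s_at probe sets were dropped. Loess, leaving out probe sets ending in _x_at or _s_at, and updated symbols kept the same 5 genes at 1.5-fold.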
